A study of Mus musculus with 18 samples.

Results

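The 10 genes described here are the mitochondrially encoded subunits of respiratory complex I (ND1, ND2, ND3, ND4, ND4L, ND5 and ND6) and of complex IV (COX1, COX2 and COX3). They were picked by symbol, written in capitals as in the deposited tables, and make up 10 of the 30172 genes listed. All 10 had at least 1 FPKM (counted fragments divided by gene length and by library total) in enough libraries to be tested at every age. The RNA came from whole ovaries of female F1 pups of wild-type C57BL/6J mice at postnatal day 3 (Pd3), 7 (Pd7) or 21 (Pd21). The dams of the F1-HHcy pups were fed methionine at 3% of the diet and those of the F1-Control pups a control chow, starting before mating and lasting through gestation and lactation, and the pups themselves were not treated. High methionine feeding is a model of hyperhomocysteinemia, a raised level of homocysteine in blood. Each of the 6 groups had 3 libraries, which makes 18, and neither the labels nor the methods say how many pups a library held, so the spread between libraries may be partly technical. Pd3 and Pd7 formed batch 1 and Pd21 batch 2, so diets were compared within a batch, whereas age and batch cannot be told apart where Pd21 is set against another day. Between 33630641 and 39399281 fragments were counted per library, and all 9 germ cell and all 8 granulosa cell markers checked were above 0.1 FPKM in every group.

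The mitochondrial genome is a small circle whose strands are named heavy and light. Each strand is transcribed as a long precursor, from which tRNAs are cut out to release the mRNAs between them. Complex I passes electrons from NADH to ubiquinone and complex IV passes them from cytochrome c to oxygen, and both pump protons. The mitochondrial genome encodes the membrane core of both complexes, while the nucleus encodes all their other subunits. Oocytes carry very large numbers of mitochondria, and in the ovary granulosa, theca and stromal cells contribute transcripts as well. In bulk tissue, fewer cells of a type and less RNA per cell cannot be told apart. Most mitochondrial mRNAs carry a short poly(A) tail, and ND6 is known as the one that largely lacks it. The labels describe stranded libraries made from poly(A) RNA.

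In the GRCm38 (mm10) annotation, 9 of the 10 genes lie on the plus strand of the mitochondrial chromosome as listed, from ND1 at chrM:2751-3707 to ND5 at chrM:11742-13565. ND6 (chrM:13552-14070) lies alone on the minus strand and shares 14 bases with the end of ND5. ND4L (chrM:9877-10173) and ND4 (chrM:10167-11544) share 7 bases of 1 transcript. These genes have no introns, and their annotated mRNAs hold almost only coding sequence.

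Several of the 10 mRNAs also exist as near-identical copies in the nuclear genome, old insertions of mitochondrial DNA annotated as pseudogenes. Since fragments from an mRNA and an identical copy cannot be separated, the copies decide which levels are uncertain, and stretches of 3 mRNAs are shown with their best annotated nuclear copy, read from the GENCODE M21 transcripts of GRCm38. The bases that differ between the mRNA and its copy are in capitals. COX2 (first base to base 90) and its copy Gm28661 (chr1:24614885-24615565, minus strand) had no difference. ND3 (the same positions) and Gm28438 (chr1:24612775-24613119, minus strand) differed at 1 base. ND5 (bases 748 to 837) and Gm11407 (chr4:80002331-80003388, plus strand) differed at 11 bases.
COX2: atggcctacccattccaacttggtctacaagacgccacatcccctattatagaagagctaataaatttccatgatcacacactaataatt
Gm28661: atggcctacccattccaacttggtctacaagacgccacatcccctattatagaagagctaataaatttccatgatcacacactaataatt
ND3: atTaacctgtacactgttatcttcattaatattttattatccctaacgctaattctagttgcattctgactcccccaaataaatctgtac
Gm28438: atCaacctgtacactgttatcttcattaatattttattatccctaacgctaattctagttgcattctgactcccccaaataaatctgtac
ND5: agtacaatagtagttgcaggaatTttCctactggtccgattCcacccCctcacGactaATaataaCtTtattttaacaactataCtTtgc
Gm11407: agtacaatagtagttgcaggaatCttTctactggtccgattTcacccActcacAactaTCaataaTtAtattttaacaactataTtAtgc

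Over the whole mRNA, the copy of COX2 matched 681 of 684 bases without a mismatch, and that of COX3 matched 783 of 784. Of all 100-base windows of an mRNA, 99.5% of COX2, 99.9% of COX3, 97.6% of ND3 and 98.5% of ND4L occurred unchanged in an annotated nuclear transcript. The share was 60.8% for ND4, 30.8% for COX1 and 3.19% for ND2. It was 0 for ND1, ND5 and ND6, whose best copies were 76.6%, 92.3% and 93.6% identical over the aligned part. None of the 13 best copies of the 13 mitochondrial mRNAs had a row in the deposited tables (0 of 13). How the authors treated fragments that match several places is not given in the sources used here, so the levels of COX2, COX3, ND3 and ND4L are uncertain, those of ND4 and COX1 in part.

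COX1, the catalytic core of complex IV, was the most abundant member, with 5004 to 15486 FPKM (median 11236) over the 18 libraries. ND1, which helps form the ubiquinone site of complex I, followed with a median of 6186 FPKM and was below COX1 in all 18 libraries, although the ranges of both overlapped in 2 of the 6 groups. The membrane subunits ND5, ND2 and ND4 came next with medians of 2730, 2429 and 2084 FPKM. They did not separate from each other, since neighbours in this order overlapped in all 6 groups.

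The other 5 members were far lower. COX2, which holds a copper site that takes electrons from cytochrome c, had a median of 146 FPKM and was 9.47 to 18.1 times below ND4 within a library. COX3 (145 FPKM) did not separate from COX2, and their ranges overlapped in all 6 groups. ND6 had a median of 71.1 FPKM, ND3 29.7 FPKM and ND4L 18.5 FPKM. ND3 and ND4L, both small membrane subunits, overlapped in 4 of the 6 groups.

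The 4 members with at least 97.6% of windows in a nuclear transcript thus had medians of 18.5 to 146 FPKM, and together they held 1.12% to 2.47% of the members' summed FPKM. Of the 6 others, 5 had medians of at least 2084 FPKM, the exception being ND6. ATP6, a subunit of ATP synthase with 99.5% of windows in a nuclear transcript, had 85.4 FPKM, and CYTB, a subunit of complex III with none, had 7249 FPKM. ATP8, with none, had only 21.0 FPKM. The part of copies, poly(A) selection or transcript length in these levels was not tested.

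**Figure D1:**
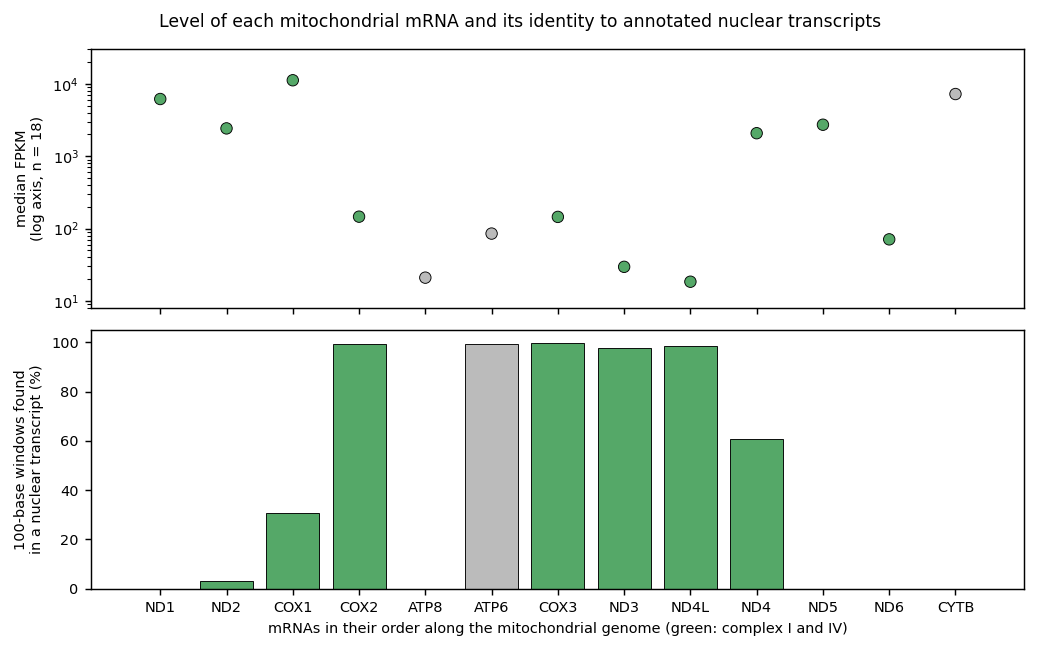
Top, median FPKM over 18 libraries (log axis) of the 13 mitochondrial mRNAs in genome order, and bottom, the percent of each mRNA's 100-base windows found unchanged in an annotated nuclear transcript (green, complex I and IV; grey, other complexes). COX2, ATP6, COX3, ND3 and ND4L, all above 97%, lie at 18.5 to 146 FPKM, and ATP8 and ND6 are low with 0% of windows.

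The members also differed in how far they varied between libraries. From the lowest to the highest library, ND4 varied 1.97-fold, ND1 2.34-fold, COX2 2.72-fold and COX1 3.09-fold, whereas ND6 varied 16.4-fold and ND4L 27.3-fold. The lowest value of ND4L rested on 14 fragments and that of ND3 on 136, while ND6 had at least 198 and COX1 at least 293647 fragments in every library. The part of counting error in the spread was not tested.

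Each day's members tended to be high or low in the same libraries. After the mean of each day was subtracted, the log2 level of COX1 correlated with the mean of the other 9 members with r = 0.95 over the 18 libraries, ND2 with 0.93 and ND4 with 0.90. ND3 (r = 0.42) and ND6 (r = 0.35) followed the others least. CYTB, which is no member, reached 0.96 against the 10 members. These correlations share libraries and their scaling and are given as a description.

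The members together took 1.72% to 4.71% of the fragments of a library. At Pd3 they made up 4.10% ± 0.91 (SD, n = 3) in F1-Control and 3.13% ± 0.24 in F1-HHcy. At Pd7 the shares were 3.74% ± 0.62 and 3.56% ± 0.82, and at Pd21 2.63% ± 0.79 and 3.28% ± 1.14. The ranges of the diets overlapped on each day. The lowest shares of all were those of F1-Control replicate 2 (1.72%) and F1-HHcy replicate 3 (1.98%) of Pd21. These 2 libraries also stood apart in single members, with ND5 at 900 and 914 FPKM against 1919 to 3048 in the other 4 libraries of that day. They had the highest sums of 7 erythroid marker genes at Pd21, 554 and 997 FPKM against 109 to 270 FPKM, and the part of this in the members' levels was not tested.

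**Figure D2:**
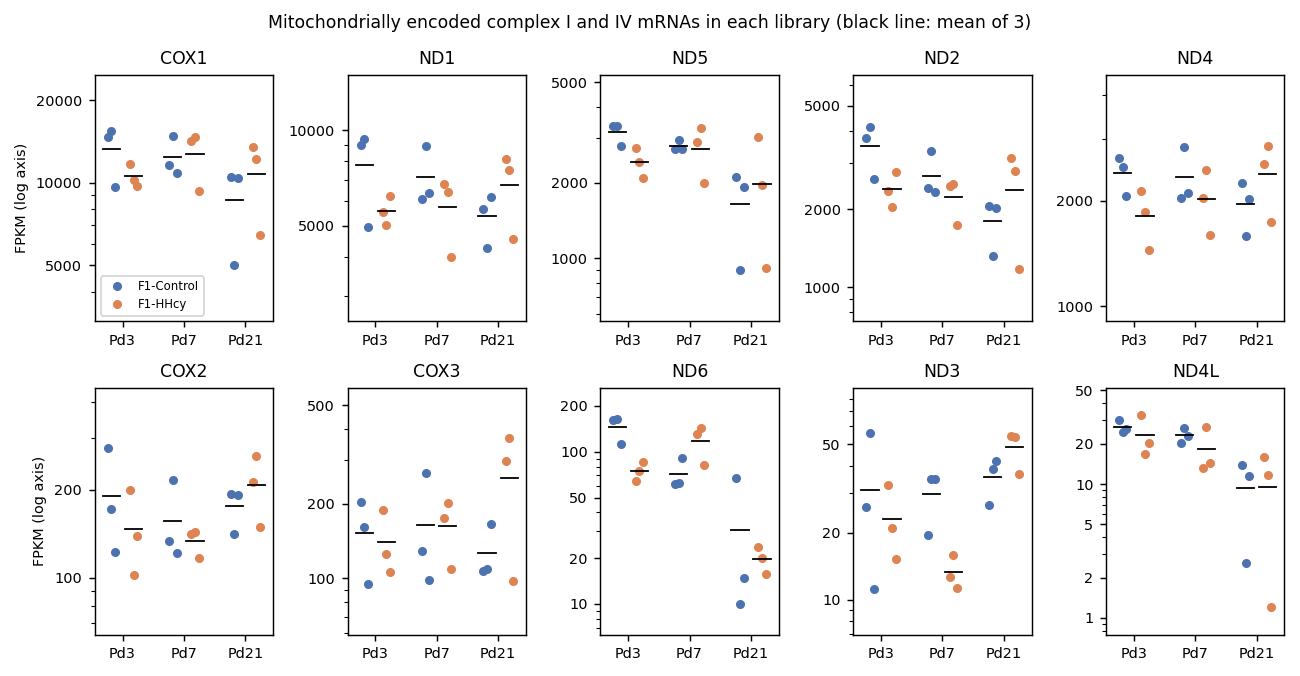
FPKM (log axis, a different range in each panel) of the 10 members by day and diet, with 1 point per library and a black line for the mean of 3 libraries. ND6 is lower in all F1-HHcy libraries at Pd3 (64.7 to 85.5 against 113 to 165 FPKM) and its groups overlap at Pd7 and Pd21, while 1 library of each diet lies low in most panels at Pd21.

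At Pd3, less ND6 mRNA was counted in the F1-HHcy libraries than in the F1-Control libraries. The other 9 members also had lower means without passing the test. ND6, a membrane subunit needed for complex I assembly, measured 161, 165 and 113 FPKM in the F1-Control libraries and 64.7, 74.9 and 85.5 FPKM in the F1-HHcy libraries. All 3 F1-HHcy libraries lay below all 3 F1-Control libraries. The means were 146 ± 28.7 and 75.0 ± 10.4 FPKM (SD, n = 3), and the log2 fold change on log2(FPKM + 1) was -0.94 ± 0.17 (SE; limma, adjusted p = 0.039). Called means here that the p before adjustment was below 0.05 and that the log2 fold change lay beyond 0.58 in either direction. ND6 was the 1 member of 10 called, where 9.74% of all 13277 genes tested were called. It was also the 1 member with an adjusted p under 0.05, as had 3.07% of all genes. The count called is thus near the share over all genes. The adjusted p of ND6 (limma) was 0.13 with the replicate number as a block and 0.24 in 1 model of all 18 libraries.

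ND5, which holds a proton channel at the far end of the membrane arm, was the second member whose groups did not overlap at Pd3. It measured 3360, 3348 and 2804 FPKM in F1-Control and 2753, 2416 and 2095 FPKM in F1-HHcy, with a log2 fold change of -0.39 ± 0.18 (limma, adjusted p = 0.25). Groups without overlap were common on this day and occurred in 27.9% of all genes, against 2 of the 10 members. ND2 had 3778, 4131 and 2613 FPKM in F1-Control and 2349, 2045 and 2776 FPKM in F1-HHcy. Its log2 fold change was -0.54 ± 0.23 (limma, adjusted p = 0.22), and its groups overlapped through F1-Control replicate 3. That library was the lowest F1-Control library of Pd3 for 9 of the 10 members. Without it 3 members were called in place of 1 (ND1, ND2 and ND6, all lower), but 0 had an adjusted p under 0.05. In that fit 726 of 13027 genes were called higher and 520 lower. Without F1-HHcy replicate 3 it was 2 members, ND2 and ND6, where 920 of 13049 genes were called higher and 1028 lower.

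For the other members at Pd3 the log2 fold changes lay between -0.10 (COX3) and -0.43 (ND1), with adjusted p-values of limma of at least 0.26. COX1 had 14658, 15486 and 9660 FPKM in F1-Control and 11719, 10254 and 9727 FPKM in F1-HHcy. Its log2 fold change of -0.30 ± 0.27 was within the spread between libraries. The median log2 fold change of the 10 members was -0.37, against -0.03 over all genes tested. The 3 other mitochondrial mRNAs, CYTB, ATP6 and ATP8, also had negative values, from -0.12 to -0.38, and none was called.

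Markers of other cells moved with the diet at Pd3. All 7 erythroid markers fell, with an adjusted p under 0.05 each, and their sum ranged from 3941 to 11288 FPKM in F1-Control and from 784 to 1108 FPKM in F1-HHcy. The sum of 9 germ cell markers ranged from 649 to 866 FPKM in F1-Control and from 1116 to 1569 FPKM in F1-HHcy. Of these 9, 4 were called higher and 2 lower, and 5 had a negative log2 fold change (median of the 9, -0.21). The sum of 8 stroma and theca markers ranged from 394 to 541 FPKM in F1-Control and from 759 to 1007 FPKM in F1-HHcy. No marker of these 3 lists was at 0 throughout a group of this day. The part of these shifts, or of poly(A) capture, in the level of ND6 was not tested.

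**Figure D3:**
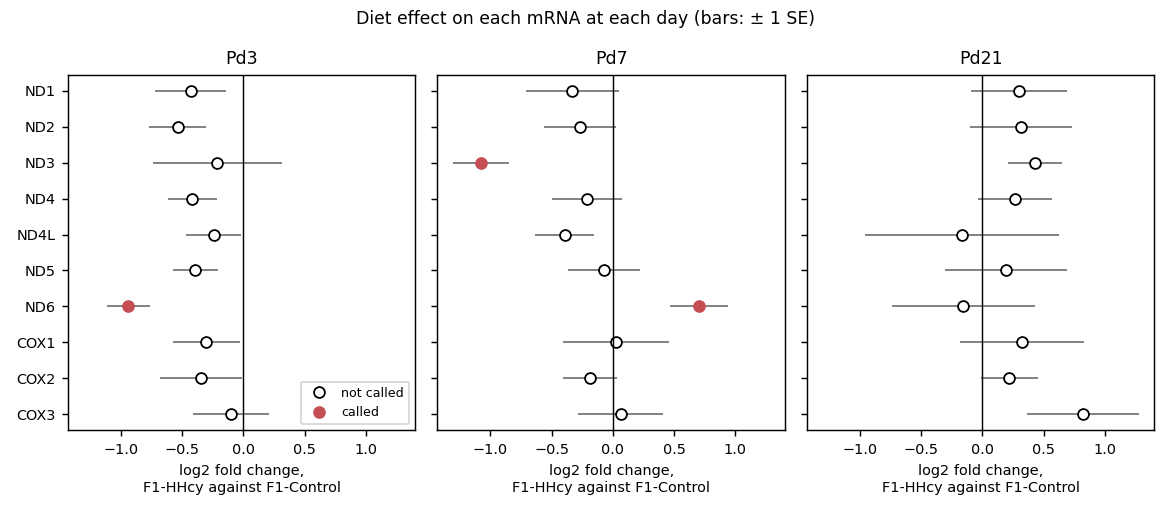
Log2 fold change on log2(FPKM + 1) of F1-HHcy against F1-Control for each member at Pd3, Pd7 and Pd21 (points, limma estimates from 3 libraries per group; bars, ± 1 SE; red, called). All 10 values lie below 0 at Pd3, ND6 is called at -0.94 there and at 0.70 at Pd7, ND3 is called at -1.08 at Pd7, and no member is called at Pd21.

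At Pd7, the direction of ND6 was the opposite and ND3 was lower in F1-HHcy. ND6 measured 61.5, 62.2 and 90.7 FPKM in F1-Control and 130, 143 and 82.0 FPKM in F1-HHcy. All 3 F1-HHcy libraries lay above the F1-Control mean, but the lowest of them was under the highest F1-Control library. The means were 71.5 ± 16.7 and 118 ± 32.0 FPKM, with a log2 fold change of 0.70 ± 0.23 (limma, adjusted p = 0.077), which was called but did not reach an adjusted p of 0.05. The call was lost without F1-Control replicate 1 or 2 or F1-HHcy replicate 2, where the log2 fold change was 0.55 to 0.62.

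ND3, which takes part in the switch between the active and resting forms of complex I, measured 19.5, 34.9 and 34.9 FPKM in F1-Control at Pd7 and 12.6, 15.8 and 11.3 FPKM in F1-HHcy. The groups did not overlap, and the means were 29.8 ± 8.91 and 13.3 ± 2.31 FPKM. The log2 fold change was -1.08 ± 0.23 (limma, adjusted p = 0.018). These values rested on 242 to 444 fragments per library in F1-Control and 146 to 185 in F1-HHcy. Given its nuclear copy, which differs from ND3 at 1 base of 345, whether the change was in the mitochondrial mRNA cannot be told from these data. With ND6 and ND3, 2 of the 10 members were called at Pd7, where 16.4% of all 13299 genes were, and 1 of the 10 had an adjusted p under 0.05, against 11.9% of all genes. Groups did not overlap for 1 of the 10 members and for 39.0% of all genes.

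The other 8 members at Pd7 had log2 fold changes from -0.39 (ND4L) to 0.06 (COX3), and limma's adjusted p-values were at least 0.29. COX1 had 11583, 14772 and 10888 FPKM in F1-Control and 14252, 14663 and 9360 FPKM in F1-HHcy, a log2 fold change of 0.02 ± 0.43. ND1 had 6064, 8927 and 6364 FPKM in F1-Control and 6780, 6397 and 4003 FPKM in F1-HHcy, with -0.33 ± 0.38. Both pairs of groups overlapped widely. The median of the 10 members was -0.20, against a value close to 0 over all genes.

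At Pd21 no member was called between the diets, where 5.14% of all 13350 genes were called and 2.23% had an adjusted p under 0.05. The groups of all 10 members overlapped, while they did not overlap for 10.5% of all genes. The means of 8 members were higher in F1-HHcy and those of ND4L and ND6 lower, and the median log2 fold change was 0.28, against -0.01 over all genes. COX3, a subunit of the core of complex IV, had the highest value, 0.82 ± 0.45, with 107, 109 and 166 FPKM in F1-Control and 298, 368 and 97.6 FPKM in F1-HHcy. ND3 had 26.5, 38.5 and 41.9 FPKM in F1-Control and 54.1, 53.9 and 36.8 FPKM in F1-HHcy, with 0.43 ± 0.22 (limma, adjusted p = 0.93). Without F1-Control replicate 2 and F1-HHcy replicate 3, the 2 libraries that stood apart, the log2 fold changes of COX3 and ND3 were 1.31 and 0.68. These 2 members were then called in place of 0, but neither had an adjusted p under 0.05. In that fit, whose libraries were chosen after seeing the data, 49 of 12679 genes were called higher and 505 lower. The same 2 members were called without F1-HHcy replicate 3 alone, 1 of them with an adjusted p under 0.05. There 11 of 13191 genes were called higher and 673 lower.

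ND6 was low in both diets at Pd21, with 67.3, 10.04 and 14.9 FPKM in F1-Control and 23.8, 20.1 and 15.6 FPKM in F1-HHcy. Its highest value at Pd21, in F1-Control replicate 1, was above the lowest values of Pd3 and Pd7. Without that library its log2 fold change turned from -0.15 to 0.63 and was called, but its adjusted p was not under 0.05. The ovaries of this day also differed in 7 of 7 oviduct and ciliated cell markers, all lower in F1-HHcy with an adjusted p under 0.05. Their sum ranged from 90.4 to 474 FPKM in F1-Control and from 6.93 to 10.6 FPKM in F1-HHcy, and the part of this in the members' values was not tested.

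The diet effect on ND6 differed between Pd3 and Pd7 by 1.64 ± 0.63 on the log2 scale in the model of all 18 libraries, with an adjusted p of 0.29 (limma). The difference thus did not pass the adjusted threshold of 0.05, which 0.411% of the 14607 genes of this model passed, and 13.8% had an unadjusted p under 0.05. None of the 10 members passed the adjusted threshold, and ND6 was the 1 with an unadjusted p under 0.05. Between Pd7 and Pd21, the diet effect on ND3 differed by 1.51 ± 0.58 (limma, adjusted p = 0.17), while 3.89% of all genes had an adjusted p under 0.05 and 19.4% an unadjusted one. Again 0 of the 10 members passed the adjusted threshold and 1 had an unadjusted p under 0.05. In the same model the diet effect on ND6 was not called at Pd3 or at Pd7, where the estimate of its spread takes in the libraries of Pd21.

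From Pd3 to Pd7, ND6 fell in F1-Control by 1.02 on the log2 scale (SE 0.45, limma, adjusted p = 0.14), the 1 member of 10 called, where 13.7% of all genes were called. In F1-HHcy no member was called, against 11.8% of all genes, and the log2 change of ND6 was 0.62 ± 0.45 (adjusted p = 0.44). The F1-HHcy libraries of Pd3 (64.7 to 85.5 FPKM) thus covered much the same range as the F1-Control libraries of Pd7 (61.5 to 90.7 FPKM). The F1-Control libraries of both days enter this comparison and those of the diets. The call in F1-Control was lost without either of replicates 1 and 2 of Pd3 or of Pd7. The other members changed by -0.37 to 0.16 in F1-Control and by -0.70 to 0.25 in F1-HHcy, none of them called. At Pd21, in the other batch, ND4L ranged from 1.20 to 15.8 FPKM in both diets, against 13.1 to 32.7 FPKM at the earlier days.

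Ratios within a library do not depend on how the library was scaled. They were chosen after the values had been seen and are given without a test. Ratios of ND2, ND4 and ND5 to ND1 and of ND4L to ND4 were also taken, and the diets overlapped in each on every day. How often ratios of other genes separate the diets was not counted. ND6 was set against ND5, its neighbour on the other strand, and against ND1, since no window of these mRNAs occurred in a nuclear transcript. At Pd3 there were 4.78, 4.91 and 4.03 FPKM of ND6 per 100 FPKM of ND5 in F1-Control and 2.35, 3.10 and 4.08 in F1-HHcy, so that the groups overlapped narrowly. At Pd7 the ratio was 2.25, 2.10 and 3.32 in F1-Control and 4.50, 4.32 and 4.12 in F1-HHcy, with no overlap. At Pd21 it was 3.19, 1.12 and 0.776 in F1-Control and 0.780, 1.03 and 1.71 in F1-HHcy. Against ND1 the groups did not overlap at either earlier day, with 1.76 to 2.27 and 1.17 to 1.49 per 100 FPKM of ND1 at Pd3 and 0.697 to 1.43 and 1.92 to 2.23 at Pd7.

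COX1 stood higher against ND1 in F1-HHcy at Pd7, although neither mRNA was called. The ratio was 1.91, 1.65 and 1.71 in F1-Control and 2.10, 2.29 and 2.34 in F1-HHcy, and the groups did not overlap. COX1, COX2 and COX3 together made up 47.0%, 45.6% and 44.8% of the members' FPKM in F1-Control at Pd7 and 50.4%, 50.3% and 50.4% in F1-HHcy. COX1 alone made up 49.3%, 49.1% and 49.2% in these F1-HHcy libraries, so most of this share is COX1. Its mean at Pd7 was 12414 FPKM in F1-Control and 12758 FPKM in F1-HHcy, while that of ND1 was 7118 and 5727 FPKM. At Pd3 and Pd21 both ratios overlapped between the diets.

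**Figure D4:**
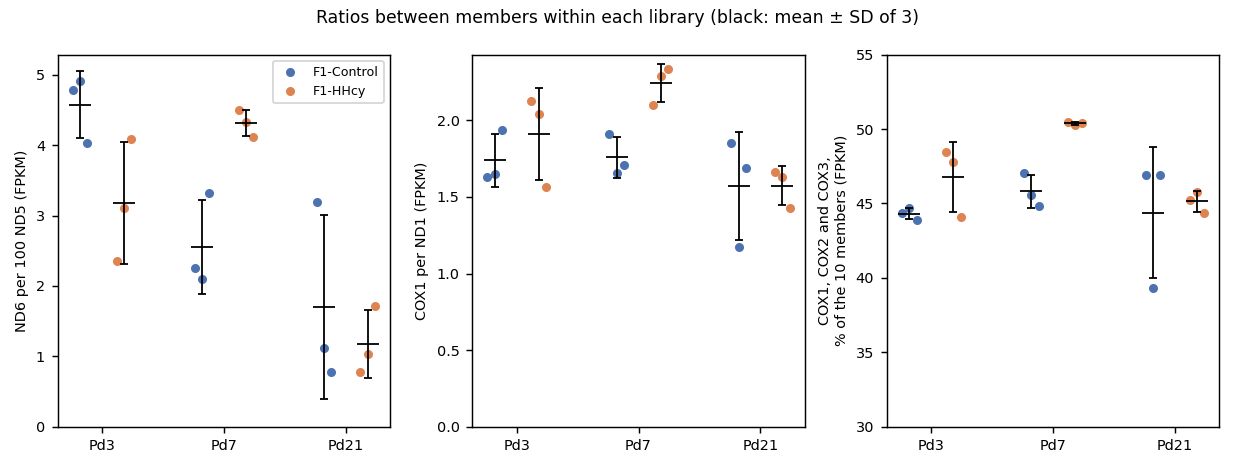
Ratios of FPKM within each library by day and diet (points, libraries; black, mean ± SD of 3), from left to right ND6 per 100 ND5, COX1 per ND1, and COX1, COX2 and COX3 as a percent of the 10 members, with the last axis starting at 30%. At Pd7 the diets do not overlap in any panel, and in the first F1-HHcy has 4.12 to 4.50 against 2.10 to 3.32.

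The nuclear-encoded partners of the same complexes are set beside the 10 members here. All 37 tested nuclear subunits of complex I and all 15 of complex IV had negative log2 fold changes at Pd7, with medians of -0.48 and -0.57. Of these, 9 of complex I and 6 of complex IV were called lower and none higher, and 4 and 2 had an adjusted p under 0.05. Of the 13299 genes tested that day, 16.4% were called (978 lower and 1205 higher). An adjusted p under 0.05 was reached by 11.9% (795 lower and 782 higher). The adjusted counts are near the share of both directions together, whereas all counts of the subunits are lower. Cox4i2, an isoform of a regulatory subunit of complex IV, measured 21.7 ± 10.6 FPKM in F1-Control and 4.47 ± 0.45 in F1-HHcy (log2 fold change -1.93, limma, adjusted p = 0.0068). Ndufb6, an accessory subunit of the membrane arm of complex I, fell from 72.7 ± 16.0 to 42.3 ± 1.95 FPKM (log2 fold change -0.75, limma, adjusted p = 0.022). Ndufs7, which carries an iron-sulfur cluster next to the ubiquinone site, measured 56.2 ± 12.8 and 34.2 ± 2.57 FPKM (log2 fold change -0.68, limma, adjusted p = 0.034). Cox5a measured 28.3 ± 7.28 and 16.8 ± 2.29 FPKM (log2 fold change -0.70, limma, adjusted p = 0.041).

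The abundant nuclear subunits did not pass the test at Pd7. Cox4i1, the common isoform of Cox4i2, had 637 ± 209 FPKM in F1-Control and 420 ± 26.1 in F1-HHcy (log2 fold change -0.55, limma, adjusted p = 0.15). Ndufa3 had 351 ± 107 and 250 ± 48.5 FPKM (log2 fold change -0.47, adjusted p = 0.21). The summed FPKM of the 53 nuclear subunits was 8340, 12626 and 7624 in F1-Control and 6589, 6844 and 5911 in F1-HHcy, without overlap. The sum of the 10 members on that day was 25188, 33475 and 24778 in F1-Control and 28881, 29841 and 19020 in F1-HHcy, with wide overlap. F1-Control replicate 2 had the highest sum of both kinds. Its summed FPKM over all genes was also the highest of that day, 532003 against 405411 to 439579. The subunits were measured in the same libraries, and the part of this library in their shared direction was not tested. Whether the diet acted differently on the mitochondrial and the nuclear subunits was not tested.

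**Figure D5:**
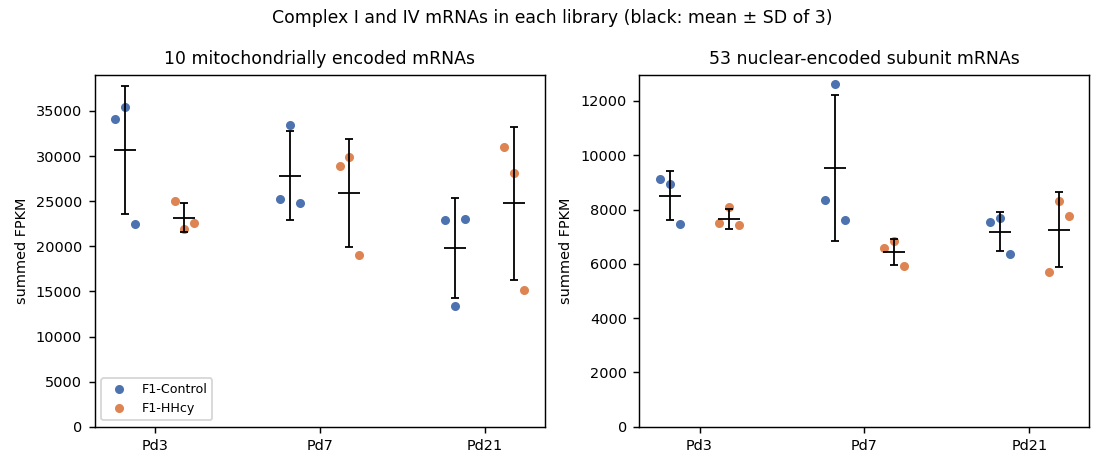
Summed FPKM of the 10 mitochondrially encoded mRNAs (left) and of 53 nuclear-encoded subunit mRNAs of complexes I and IV (right) in each library by day and diet (points, libraries; black, mean ± SD of 3). At Pd7 the nuclear sums are 5911 to 6844 in F1-HHcy and 7624 to 12626 in F1-Control, while the mitochondrial sums of the diets overlap on every day.

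Other signals moved with the diet at Pd7 beside these lists. The sum of 4 nuclear-retained RNAs, included as a sign of RNA quality, ranged from 35.9 to 225 FPKM in F1-Control and from 360 to 601 FPKM in F1-HHcy. The lowest sum was that of F1-Control replicate 2. Malat1, the most abundant of them, rose from 126 ± 85.4 to 469 ± 118 FPKM (log2 fold change 2.24, limma, adjusted p = 0.036). Of 8 granulosa cell markers, 4 were called higher and 0 lower, and of 8 stroma and theca markers 4 higher and 1 lower. All 5 erythroid markers tested fell. The sum of all 7 on that list ranged from 925 to 5791 FPKM in F1-Control and from 287 to 502 FPKM in F1-HHcy, with Slc4a1 under 0.1 FPKM in all F1-HHcy libraries. Of the 9 germ cell markers, 7 were called lower and 1 higher, with sums of 1268 to 2044 FPKM in F1-Control and 729 to 1191 FPKM in F1-HHcy. The part of these in ND6, ND3 or the nuclear subunits, and that of poly(A) capture in ND6, was not tested.

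At Pd3 the nuclear subunits of complex I had a median log2 fold change of -0.13 and those of complex IV of -0.16, with 1 and 2 called lower, none higher and none with an adjusted p under 0.05. At Pd21 the medians were 0.03 and close to 0, and none of the 37 and 16 tested was called.

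Genes that copy, process and assemble these products are read against the share called over all genes, which was 9.74% for Pd3, 16.4% for Pd7 and 5.14% for Pd21. Of 15 genes for transcription and replication of mitochondrial DNA, 14, 15 and 12 were tested at Pd3, Pd7 and Pd21, and none was called on any day. Tfam, which packs mitochondrial DNA and starts its transcription, had 20.9 ± 1.05 FPKM in F1-Control and 15.4 ± 1.17 in F1-HHcy at Pd7, a log2 fold change of -0.41 (limma, adjusted p = 0.068). Polrmt, the mitochondrial RNA polymerase, had 7.37 ± 0.54 and 8.43 ± 0.68 FPKM (log2 fold change 0.17, adjusted p = 0.42). None of 20 genes for processing and stability of mitochondrial RNA was called on any day either. Elac2, which cuts the 3′ ends of mitochondrial tRNAs, had 17.6 ± 1.66 and 12.3 ± 2.35 FPKM at Pd7 (log2 fold change -0.50, limma, adjusted p = 0.072). Lrpprc, which stabilises mitochondrial mRNAs, had 19.1 ± 1.85 and 18.2 ± 1.11 FPKM on that day. None of 6 regulators of mitochondrial biogenesis tested on each day was called. Of 33 assembly factors tested, 1 was called on 1 day, Cmc2 at Pd7, which fell from 13.96 ± 3.35 to 8.23 ± 0.58 FPKM (log2 fold change -0.67, limma, adjusted p = 0.039).

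Among 5 genes outside the mitochondrial genome that followed the members most closely, 2 act in the oxidation of fatty acids in mitochondria. Likeness was Pearson's r with the mean log2(FPKM + 1) of the 10 members over the 18 libraries, after the mean of each day was subtracted, for genes with a mean of at least 10 FPKM. Hadhb, a subunit of the mitochondrial trifunctional protein, had r = 0.84 at a mean of 19.2 FPKM, and Acaa2, a mitochondrial thiolase, r = 0.74 at 136 FPKM. The others were Hacd3 (r = 0.75), an enzyme that lengthens fatty acids, Creb3 (r = 0.70), a transcription factor held in the endoplasmic reticulum, and Ndufs1 (r = 0.69), the largest nuclear subunit of complex I. These are the highest of 6306 genes compared and share libraries and scaling with the members.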

How the data were processed

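The files the authors deposited hold 1 value for each gene symbol of a library, read here as FPKM because a length per gene turned the deposited values into whole fragments (at least 99.996% of each library's total recovered, 33630641 to 39399281 fragments). The submitters' processing notes name Trimmomatic 0.39, STAR 2.7.9a, featureCounts 2.0.1 and GRCm38 (mm10). The handling of fragments that match several places is not given in the sources used here.

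For each day, log2(FPKM + 1) of genes that reached 1 FPKM in 3 or more of the day's 6 libraries was compared between diets with limma 3.58.1 (trend of the variance, R 4.3.3). Benjamini-Hochberg adjustment ran over all genes tested. Differences between days and changes from Pd3 to Pd7 were fitted in 1 model of the 6 groups. The fits were tested on simulated data. Alternatives were a pseudocount of 0.1, no filter, 1 model of 18 libraries, a replicate block, scaling without mitochondrial mRNAs or by median ratios, an adjusted threshold, limma-voom on recovered fragments and leaving out libraries. Nuclear copies were searched with blastn 2.17.0 among annotated transcripts, and those of chromosome 18 were not used here.

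The text names the 10 members, the 3 other mitochondrial mRNAs, part of the 2 most abundant and the 2 smallest-p genes of each list, and the 5 genes most like the members. Polrmt and Lrpprc were added for their roles. The members and lists were chosen with earlier results of these data known.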

Additional observations from a re-analysis of the deposited data

Results flagged for a closer look

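In 3 cases all 3 F1-HHcy libraries lay on one side of the F1-Control mean on one day and on the other side on another day. How many of all genes met this rule was not counted. For ND6 they lay below it at Pd3 and above it at Pd7, a difference of the diet effect of 1.64 ± 0.63 on the log2 scale (limma, adjusted p = 0.29). From Pd7 to Pd21 they went back below it, with a difference of -0.86 ± 0.63 (limma, adjusted p = 0.47). The F1-Control mean of ND6 at Pd21 rests on replicate 1 (67.3 FPKM against 10.04 and 14.9), all 3 F1-HHcy libraries (15.6 to 23.8 FPKM) lie above the other 2, and without replicate 1 the log2 fold change at Pd21 turns from -0.15 to 0.63. For ND3 they lay below the mean at Pd7 and above it at Pd21, a difference of 1.51 ± 0.58 (limma, adjusted p = 0.17). None of the 3 differences passed an adjusted p of 0.05. With Pd21, age and batch cannot be told apart. Over 18 alternatives, adjusted p-values ranged from 0.19 to 0.51 for the first ND6 difference and from 0.12 to 0.37 for the ND3 difference.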

How the results depend on the processing

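ND6 at Pd3 stayed called in 12 of 13 alternatives (log2 fold change -1.11 to -0.84, limma, adjusted p 0.0065 to 0.24). Its adjusted p was 0.13 with a replicate block and 0.13 without a filter, and up to 0.21 with 1 library left out. ND3 at Pd7 stayed called in 13 of 13 (-1.35 to -0.94, adjusted p 0.0060 to 0.099). ND6 at Pd7 stayed called in 9 of 13 (0.55 to 0.94, adjusted p 0.039 to 0.29). With all 18 libraries in 1 model, 0 members were called at Pd3 and 1 at Pd7, and the rule of an adjusted p under 0.05 left 1 at Pd7. The change of ND6 from Pd3 to Pd7 in F1-Control left 0 called without a filter and 0 with median-ratio scaling. With 1 library left out in turn, 1 to 3 members were called at Pd3, 1 to 2 at Pd7, 0 to 2 at Pd21 and 0 to 1 for that change. The calls over all genes moved as well. At Pd3 they went from 488 higher and 424 lower without F1-HHcy replicate 1 to 920 and 1028 without F1-HHcy replicate 3. Without both low libraries of Pd21, an alternative chosen after seeing the data, 2 were called, neither with an adjusted p under 0.05. The medians of the members kept their sign on every day, with ranges of -0.57 to -0.26 at Pd3, -0.31 to -0.04 at Pd7 and 0.09 to 0.63 at Pd21.

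Some members that were not called changed sign when 1 library was left out. At Pd3 this held for ND3 (-0.78 to 0.34) and COX3 (-0.41 to 0.14). At Pd7 it held for ND5 (-0.23 to 0.14), COX1 (-0.091 to 0.23), COX2 (-0.35 to 0.063) and COX3 (-0.24 to 0.48), and COX1 also turned to -0.0032 with median-ratio scaling. At Pd21 it held for ND4L (-0.81 to 0.75, and 0.10 without both low libraries), ND5 (-0.20 to 0.67), ND6 (-0.68 to 0.63) and COX1 (-0.031 to 0.65). The cause was not tested.

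The replicate numbers are shared between the diets, but nothing says that they pair the samples, and same-numbered libraries did not deviate together (correlations from -0.34 to 0.09). With the number as a replicate block, the diets differed in 1 called member at Pd3, in 2 at Pd7 and in 0 at Pd21, while 1 changed from Pd3 to Pd7 in F1-Control and 0 in F1-HHcy, and 0 had a difference of the diet effect between days by an adjusted p under 0.05. Before adjustment, 1 member had a p under 0.05 for the difference between Pd3 and Pd7 and 1 for that between Pd7 and Pd21. Depth limits ND4L most, with 14 fragments in 1 library.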

Other observations

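CYTB, ATP6 and ATP8, the mitochondrial mRNAs of complexes III and V, were not called between the diets on any day. CYTB had 8472 ± 1406 FPKM in F1-Control and 6499 ± 827 in F1-HHcy at Pd3 (SD, n = 3). At Pd7 it had 8220 ± 1834 and 6958 ± 1454 FPKM and at Pd21 6462 ± 1873 and 7461 ± 2207 FPKM. ATP8, the smallest of the 13 mRNAs, had 31.5 ± 15.4 and 23.8 ± 8.81 FPKM at Pd3. Its Pd7 levels were 21.3 ± 7.24 and 23.2 ± 7.10 FPKM, and those of Pd21 were 14.2 ± 9.999 and 23.7 ± 11.1 FPKM. At Pd21 ATP8 was called higher in F1-HHcy without F1-Control replicate 3 (log2 fold change 1.27, limma, adjusted p = 0.95) or without F1-HHcy replicate 3 (1.23, limma, adjusted p = 0.58).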
